A study of Mus musculus with 27 samples.

Results

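The 37 RNAs encoded by mouse mitochondrial DNA were followed in RAW264.7 cells, a mouse macrophage line, as all rows of the deposited count table whose gene symbol starts with mt-. They are 37 of the 55483 genes of the table and comprise 2 rRNAs, 13 mRNAs and 22 tRNAs by annotated biotype. For 6 h the cells received DMSO alone, LPS (1 µg/ml) with DMSO, called LPS here, or the same LPS with TM7nox (10 µM). LPS is a bacterial lipopolysaccharide that activates macrophages, and TM7nox is a tanshinone mimic, a class of small molecules made to disturb the binding of HuR to RNA. HuR, the product of Elavl1, is an RNA-binding protein that prefers U-rich and AU-rich sequence. Total RNA (RNA) and RNA from beads with an anti-HuR antibody (RIP, ribonucleoprotein immunoprecipitation) were each sequenced in 4 libraries per treatment. RNA from beads with control IgG was sequenced in 1 library per treatment, which the labels number replicate 3. Every library came from about 30 M cells of this line. Nothing in the labels says that replicates came from separate cultures, so p-values measure the spread between these libraries, which may be technical.

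Mitochondrial DNA is a small circle that is transcribed from both strands into long RNAs. These are cut into rRNAs, tRNAs and mRNAs, largely at the tRNAs that lie between the other genes. The rRNAs form the mitochondrial ribosome, and the mRNAs encode subunits of the respiratory chain and of ATP synthase. Their transcription and maturation depend on proteins encoded in the nucleus, and activated macrophages are known for a shift away from mitochondrial respiration.

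The libraries held 2728534 to 41449233 counts, and RNA DMSO replicate 1 was the shallowest. All 8 macrophage markers examined (Ptprc, Csf1r, Adgre1, Cd68, Itgam, Lyz2, Spi1 and Cd14) were detected in each assay, with a summed level of 3439 to 6791 CPM (counts per 1000000 counts of the scaled library) in RNA. Markers of fibroblasts, T cells and B cells summed to at most 0.529 CPM in any library. RNA came from cell pellets, whereas RIP and IgG RNA came from beads after lysis with a mild detergent and centrifugation. The material sampled and the antibody step therefore differ together between RIP and RNA and cannot be told apart. CPM values are on 1 TMM scale, a scaling under which the typical gene is level between libraries, with factors of 1.13 to 1.73 in RNA, 0.513 to 0.987 in RIP and 1.28 to 1.82 in IgG.

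Of the 37 genes, 15 had any count. No count was recorded in any of the 27 libraries for 21 tRNAs and for mt-Atp8, which encodes a subunit of ATP synthase. Over 678267261 counts in all, 3 counts would be 0.00442 CPM. That value limits only what was counted to these rows, not the level of the RNAs, for the reasons given with the nuclear copies and the tRNAs. Another 5 mRNAs stayed under 10 counts in every library. These were mt-Nd3 with 33 counts over all libraries, mt-Co2 with 25, mt-Atp6 with 4, mt-Co3 with 2 and mt-Nd4l with 1. The remaining 10 genes passed the filter on low counts in each comparison. They were the rRNAs mt-Rnr2 (30882609 counts over all libraries) and mt-Rnr1 (14611250), the tRNA mt-Tp (3032) and 7 mRNAs. The mRNAs were mt-Co1 (2529095 counts), mt-Nd5 (1162029), mt-Cytb (988037), mt-Nd1 (888456), mt-Nd4 (435848), mt-Nd2 (318998) and mt-Nd6 (281204).

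The mRNAs with few or no counts lay side by side on the mitochondrial genome and had near-identical copies in the nuclear genome. A stretch of GRCm39 chromosome 1 (chr1:24650616-24655269, minus strand) matched bases 6390 to 11042 of the mitochondrial genome at 99.936% identity over an alignment of 4654 bases. Every 50-base stretch of mt-Co2, mt-Atp8, mt-Atp6, mt-Co3 and mt-Nd4l, and 99.0% of those of mt-Nd3, also occurred exactly in the nuclear genome. The share was 62.2% for mt-Nd4 and 51.1% for mt-Co1, whose genes lie partly inside the copied stretch. It was 8.29% for mt-Nd2, 7.61% for mt-Nd5 and 6.13% for mt-Rnr2, and 0% for mt-Rnr1, mt-Nd1, mt-Nd6 and mt-Cytb. The treatment of reads with several matches is not given in the sources used here. For these 6 mRNAs the low counts are therefore not evidence of low levels, and those of mt-Co1 and mt-Nd4 are uncertain in the copied stretch.

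**Figure D1:**
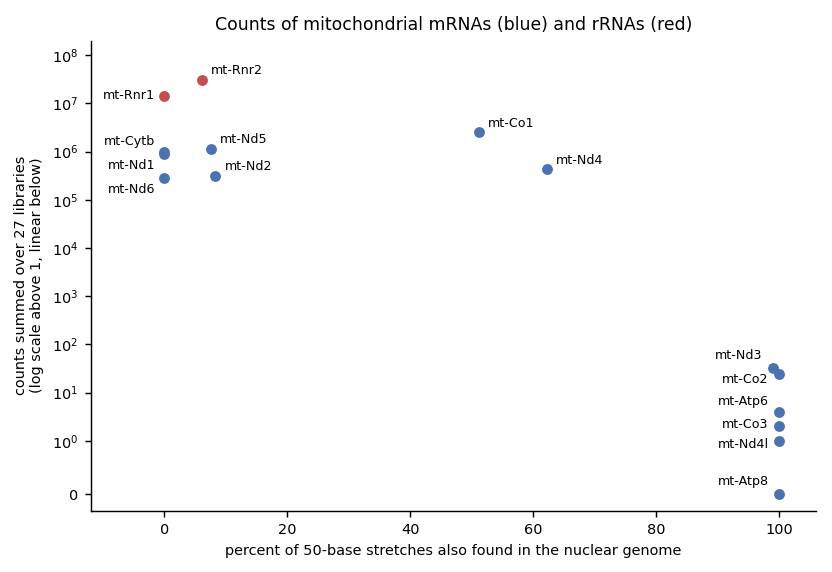
Counts summed over 27 libraries (vertical axis, log scale above 1) against the percent of each gene's 50-base stretches that also occur in the nuclear genome, for 13 mRNAs (blue) and 2 rRNAs (red). The 6 mRNAs at 99.0% or 100% had 0 to 33 counts, and the 7 other mRNAs had 281204 or more.

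The nuclear copies are annotated as pseudogenes with rows of their own. Gm28438, in the chromosome 1 copy, held 16874 counts over all libraries, with 48 to 1425 in single RNA libraries, 275 to 1424 in RIP and 638 to 1230 in IgG. Gm29216, in the same copy, held 1726 counts. Gm13340, in a copy on chromosome 2 (chr2:22477300-22480546) at 97.362% identity, held 1110 counts, with 144 to 223 in the IgG libraries against 0 to 64 in RNA and 6 to 36 in RIP. The other pseudogenes of these copies held 235 counts or fewer.

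Among the tRNAs, mt-Tp, which carries proline, was the only one with counts. It was read from 13 to 344 times per library. It borders the noncoding control region, 877 bases without an annotated gene, as does mt-Tf on the other side of that region, which had 0 counts. Each other tRNA had an annotated neighbour within 32 bases on both sides. Mature tRNAs are short, and the way the reads of such short genes were counted is not given in the sources used here. Values of mt-Tp therefore cannot be read as the level of the mature tRNA.

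mt-Nd6, which encodes a complex I subunit, is the only mRNA encoded on the light strand, and it was richer than the other tested mRNAs in U, the base that HuR is known to prefer. U made up 43.7% of mt-Nd6 and 26.4 to 30.6% of the other tested mRNAs and the rRNAs. UUUUU occurred 12 times in mt-Nd6 (23.1 per kb), counting overlaps. It occurred 5 times in mt-Nd5, 3 times in mt-Cytb, 1 time in mt-Nd1, mt-Co1 and mt-Rnr2, and not in mt-Nd2, mt-Nd4 or mt-Rnr1. The most U-rich window of 100 bases of 5 genes and the whole of mt-Tp follow, read from the GRCm39 reference 5′ to 3′ on the RNA's own strand with T for U, to let this feature be seen. Capitals mark runs of 4 or more T.
mt-Nd6: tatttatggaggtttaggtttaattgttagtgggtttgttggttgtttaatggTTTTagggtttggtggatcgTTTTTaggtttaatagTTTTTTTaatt
mt-Nd5: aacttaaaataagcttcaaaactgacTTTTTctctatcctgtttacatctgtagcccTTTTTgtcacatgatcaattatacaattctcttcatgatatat
mt-Cytb: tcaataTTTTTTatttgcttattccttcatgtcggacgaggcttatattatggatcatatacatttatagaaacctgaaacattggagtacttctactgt
mt-Nd1: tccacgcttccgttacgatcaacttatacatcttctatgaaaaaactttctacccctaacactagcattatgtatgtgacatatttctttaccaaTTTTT
mt-Rnr2: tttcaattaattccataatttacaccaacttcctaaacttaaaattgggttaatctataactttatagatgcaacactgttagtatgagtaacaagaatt
mt-Tp: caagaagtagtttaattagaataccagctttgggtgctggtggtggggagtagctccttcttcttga
These stretches lie at chrM:13897-13996 (minus strand) for mt-Nd6, chrM:11965-12064 for mt-Nd5, chrM:14406-14505 for mt-Cytb, chrM:3581-3680 for mt-Nd1, chrM:1655-1754 for mt-Rnr2 and chrM:15356-15422 (minus strand) for mt-Tp. The mt-Nd6 window held 54 U in 100 bases, against 41 in mt-Nd5 and mt-Cytb, 38 in mt-Nd1 and 36 in mt-Rnr2. mt-Tp held 22 U in 67 bases and no run of 4. The longest run of U in mt-Nd6 was 7.

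Mitochondrial rRNA was a large share of the counts in total RNA and a small one in RIP, while mitochondrial mRNA differed less between the assays. The rRNAs took 17.3% ± 3.59 of the counts in RNA from DMSO, 14.1% ± 2.29 in LPS and 16.1% ± 1.37 in LPS+TM7nox (mean ± SD of 4 libraries each). In RIP they took 0.450% ± 0.219, 0.573% ± 0.656 and 0.507% ± 0.250 in the same order (mean ± SD of 4 libraries each). In the single IgG libraries the share was 4.68% (Wilson 95% interval 4.67 to 4.69), 4.73% (4.72 to 4.74) and 4.13% (4.11 to 4.14). Libraries of the 3 assays did not overlap in this share. Intervals here cover counting error only.

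The mRNAs took 1.97% ± 0.346, 1.29% ± 0.194 and 1.34% ± 0.370 of the counts in RNA of the DMSO, LPS and LPS+TM7nox groups (mean ± SD of 4 libraries each). In RIP the shares were 0.840% ± 0.151, 0.328% ± 0.0364 and 0.563% ± 0.220 (mean ± SD of 4 libraries each). In IgG they were 1.46% (Wilson 95% interval 1.45 to 1.46), 0.837% (0.833 to 0.841) and 1.18% (1.17 to 1.19). RNA held 8.89 ± 1.99, 11.0 ± 1.43 and 12.6 ± 2.94 rRNA counts per mRNA count in DMSO, LPS and LPS+TM7nox (mean ± SD of 4 libraries each). RIP held 0.540 ± 0.258, 1.85 ± 2.22 and 0.887 ± 0.201 (mean ± SD of 4 libraries each), and IgG 3.21, 5.65 and 3.50. The mean of RIP from LPS rests on replicate 4, at 5.17, since the other libraries lay between 0.591 and 0.908. Almost all mRNA counts came from 7 of the 13 mRNAs, and mt-Co1 and mt-Nd4 among them lie partly in the nuclear copy. The mRNA shares and the ratios to rRNA therefore describe what was counted, not the full level of mitochondrial mRNA.

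**Figure D2:**
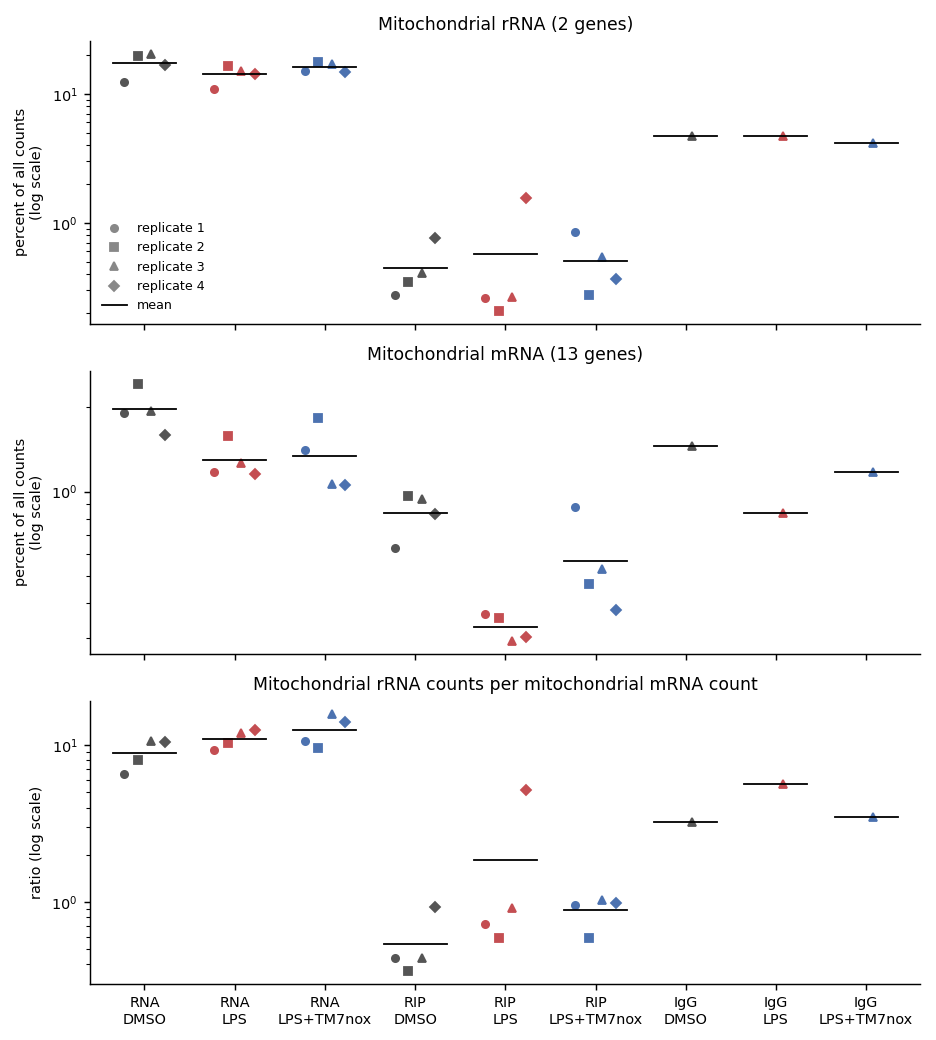
Percent of all counts in the 2 mitochondrial rRNAs (top) and 13 mRNAs (middle), and rRNA counts per mRNA count (bottom), on log scales, by assay and treatment, with 1 point per library and bars at the group mean. The rRNA share lies between 10.9% and 20.5% in RNA, between 4.13% and 4.73% in IgG and between 0.208% and 1.56% in RIP. Almost all mRNA counts came from 7 of the 13 mRNAs.

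The ratio of the 2 rRNAs also differed between the assays. mt-Rnr2, the RNA of the large ribosomal subunit, had 2.19 ± 0.428, 2.11 ± 0.210 and 2.13 ± 0.190 counts per count of mt-Rnr1, the small-subunit RNA, in RNA of the DMSO, LPS and LPS+TM7nox groups (mean ± SD of 4 libraries each). The ratio was 2.17, 2.62 and 2.29 in IgG. In RIP it was 1.39 ± 0.196, 1.20 ± 0.480 and 1.18 ± 0.269 (mean ± SD of 4 libraries each). All RIP libraries were below the lowest RNA library (1.78) except replicate 4 of LPS (1.89). No test was run on this ratio.

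Per kilobase of gene, the rRNAs stood far above the mRNAs in RNA. In DMSO, mt-Rnr2 stood at 49760 ± 14560 CPM per kb and mt-Rnr1 at 37420 ± 8364, a difference smaller than the SD of mt-Rnr2. mt-Co1, a subunit of cytochrome c oxidase, followed at 3217 ± 624 and mt-Cytb, the cytochrome b of complex III, at 2383 ± 557. Of the complex I subunits, mt-Nd1 stood at 1576 ± 630 CPM per kb, mt-Nd5 at 1057 ± 243, mt-Nd2 at 656 ± 227, mt-Nd6 at 641 ± 227 and mt-Nd4 at 591 ± 108 (mean ± SD, n = 4 libraries for each). The last 3 differed by less than their SDs. In RIP from DMSO the order was different, with mt-Nd1 (1878 ± 423), mt-Co1 (1494 ± 477), mt-Nd6 (1106 ± 673), mt-Nd5 (1051 ± 474), mt-Cytb (934 ± 195), mt-Nd4 (516 ± 95.4) and mt-Nd2 (372 ± 88.8 CPM per kb). The values of mt-Co1 and mt-Nd4 count only what the table holds of genes that lie partly in the nuclear copy.

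Within the mRNAs, mt-Co1 made up 38.6% ± 3.98 of mitochondrial mRNA counts in RNA from DMSO, 47.4% ± 2.20 in LPS and 49.5% ± 1.68 in LPS+TM7nox (mean ± SD of 4 libraries each). mt-Cytb made up 21.0% ± 0.337, 16.2% ± 0.558 and 14.9% ± 1.02 (mean ± SD of 4 libraries each). The mt-Co1 share was higher, and the mt-Cytb share lower, in every LPS library than in every DMSO library. mt-Nd6 made up 2.54% ± 0.521, 2.80% ± 0.526 and 2.94% ± 0.467 in RNA, and 6.47% ± 3.92, 7.76% ± 4.20 and 8.15% ± 5.07 in RIP (mean ± SD of 4 libraries each). In the single IgG libraries mt-Nd6 was 4.96%, 5.64% and 7.61% of mitochondrial mRNA counts.

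In total RNA, mt-Cytb and mt-Nd4 were lower with LPS than with DMSO relative to the typical gene, and neither rRNA was called. mt-Cytb stood at 2357, 3664, 2581 and 2301 CPM in DMSO replicates 1 to 4 and at 1464, 2011, 1698 and 1660 CPM in LPS. Every LPS library was below every DMSO library. The log2 fold change of mt-Cytb was -0.70 (SE 0.21, FDR 0.0156), where FDR is the Benjamini-Hochberg adjusted p of edgeR's quasi-likelihood test over all genes tested, called under 0.05. mt-Nd4, a complex I subunit, stood at 820, 978, 845 and 617 CPM in DMSO and at 484, 688, 578 and 521 CPM in LPS. These groups overlapped in 1 pair of libraries, and the log2 fold change was -0.56 (SE 0.21, FDR 0.0490).

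None of the 10 tested members was called higher with LPS in RNA and 2 were called lower, while 20.2% of all 12369 genes tested were higher and 21.7% lower. The 7 mRNAs ranged from -0.70 to -0.02 with a median log2 fold change of -0.53, against -0.04 over all genes. mt-Co1 had the highest value at -0.02 (SE 0.21, FDR 0.937), and its sign turned with DESeq2, with scaling on the other genes and without the filter. In same-numbered libraries, mt-Nd1, mt-Nd2, mt-Nd4, mt-Nd5 and mt-Cytb were lower with LPS in 4 of 4 pairs. How many of all genes did so was not counted. With the replicate number as a block, 5 members were called, all lower, against 52.4% of all genes called in either direction. mt-Nd1 (-0.49, FDR 0.00989), mt-Nd2 (-0.64, FDR 0.000236) and mt-Nd5 (-0.37, FDR 0.0104) joined the 2 others. mt-Cytb missed the threshold without RNA DMSO replicate 2 (-0.54, FDR 0.0562). mt-Nd4 missed it without RNA DMSO replicate 1 (-0.53, FDR 0.0814), 2 (-0.47, 0.125) or 3 (-0.54, 0.0931), or RNA LPS replicate 1 (-0.49, 0.111), 3 (-0.56, 0.0905) or 4 (-0.51, 0.120). It also missed it with scaling on the other genes (-0.50, FDR 0.0743). In replicates 1 and 2 alone neither mt-Cytb (-0.78, FDR 0.121) nor mt-Nd4 (-0.61, FDR 0.204) was called.

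mt-Rnr1 stood at 25831, 45236, 34723 and 37154 CPM in RNA from DMSO and at 23783, 44403, 40960 and 43112 CPM in LPS. mt-Rnr2 stood at 46011, 92619, 96849 and 79381 CPM in DMSO and at 57341, 90407, 83934 and 83174 CPM in LPS. Replicate 1 was the lowest library of both rRNAs in both groups. The log2 fold change with LPS was 0.06 for mt-Rnr1 (SE 0.24, FDR 0.865) and -0.03 for mt-Rnr2 (SE 0.26, FDR 0.947), with signs that turned to -0.23 with library totals for mt-Rnr1 and to 0.03 with scaling on the other genes for mt-Rnr2. For mt-Nd6 the log2 fold change was -0.18 (SE 0.26, FDR 0.626). For mt-Tp the log2 fold change was 0.17 (SE 0.35, FDR 0.741), and it was -0.13 with library totals as the scale.

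No member was called in total RNA when TM7nox was added to LPS. None of the 10 members passed the threshold of edgeR's test, at which 7.37% of genes were higher and 6.4% lower, and 0 had an unadjusted p under 0.05. DESeq2 also called 0 members. mt-Nd2, a complex I subunit, had the highest mRNA value at 0.22 (SE 0.27, FDR 0.685), and mt-Cytb the lowest at -0.02 (SE 0.21, FDR 0.969). mt-Cytb stood at 1805, 2333, 1285 and 1288 CPM with LPS+TM7nox, so that replicates 1 and 2 were above and replicates 3 and 4 below the same-numbered LPS libraries. The rRNAs were higher in 4 of 4 pairs, at log2 fold changes of 0.19 for mt-Rnr1 (SE 0.24, FDR 0.689) and 0.23 for mt-Rnr2 (SE 0.26, FDR 0.656). Their lowest values over all alternatives were 0.03 and 0.11, and the FDR of mt-Rnr1 without RNA LPS replicate 1 was 0.968. mt-Nd6 was at 0.13 (SE 0.26, FDR 0.812) and mt-Tp at -0.06 (SE 0.35, FDR 0.946).

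In RNA recovered with anti-HuR, 4 mitochondrial mRNAs were lower with LPS. mt-Cytb stood at 945, 1309, 1195 and 823 CPM in RIP from DMSO and at 583, 527, 420 and 394 CPM in LPS, and its log2 fold change was -1.17 (SE 0.31, FDR 0.00567). mt-Nd1, a complex I subunit, stood at 1570, 2169, 2106 and 1343 CPM in DMSO and at 1063, 1095, 793 and 434 CPM in LPS, and its log2 fold change was -1.10 (SE 0.33, FDR 0.0133). mt-Nd2 stood at 259, 419, 477 and 391 CPM in DMSO and at 212, 223, 197 and 147 CPM in LPS, and its log2 fold change was -1.01 (SE 0.25, FDR 0.00418). For these mRNAs every LPS library was below every DMSO library. The same held for mt-Nd4, at 555, 798, 839 and 651 CPM in DMSO and 476, 545, 450 and 292 CPM in LPS, and its log2 fold change was -0.71 (SE 0.25, FDR 0.0328). How many of all genes were without overlap was not counted.

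No member was called higher and 4 were called lower in RIP with LPS, against 23.5% of all 13614 genes tested higher and 21.2% lower. The 7 mRNAs ranged from -1.17 to -0.42, with mt-Co1 the highest at -0.42 (SE 0.35, FDR 0.352). Their median was -0.71, against -0.0044 over all genes. mt-Nd6 stood at 226, 449, 568 and 1053 CPM in DMSO and at 264, 297, 410 and 625 CPM in LPS, and its log2 fold change was -0.55 (SE 0.39, FDR 0.260). With the replicate block, 7 members were called, of which 6 were lower and 1 higher, against 59.3% of all genes called. mt-Nd6 (-0.45, FDR 0.0494) and mt-Rnr1 (0.70, FDR 0.0478) were among them. Over all alternatives the weakest value of mt-Nd6 was -0.10, and its FDR without RIP DMSO replicate 4 was 0.832. mt-Nd4 missed the threshold without RIP DMSO replicate 2 (-0.68, FDR 0.0673) or 3 (-0.68, 0.0671), or RIP LPS replicate 3 (-0.73, 0.0621) or 4 (-0.58, 0.0877).

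Among the nuclear-retained RNAs examined (Malat1, Neat1, Kcnq1ot1 and Rn7sk), 2 of 4 were also lower in RIP with LPS, Malat1 at -1.58 (FDR 0.000650) and Kcnq1ot1 at -1.79 (FDR 0.00869). The Kcnq1ot1 call ended without RIP DMSO replicate 2 (-0.87, FDR 0.0584), which stood at 87.5 CPM against 14.1 to 21.7 in the other DMSO libraries. Neat1 was at -1.08 (FDR 0.0861), and it was called with the replicate block (-1.11, FDR 0.00424) and without RIP DMSO replicate 3 (-1.36, FDR 0.0442). Rn7sk was not called. It stood at 561, 391, 477 and 586 CPM in RIP from DMSO and at 771, 406, 473 and 1149 CPM in LPS. In RNA with LPS, Malat1 was lower (-0.70, FDR 0.0278) and Rn7sk higher (0.52, FDR 0.0208). The Malat1 call ended without RNA DMSO replicate 2 (-0.41, FDR 0.115) or RNA LPS replicate 1, 3 or 4 (-0.66, -0.70 and -0.55). The Rn7sk call ended without RNA DMSO replicate 3 (0.45) or RNA LPS replicate 2 (0.47). Kcnq1ot1 was at -0.87 in RNA (FDR 0.0598, or 0.00464 with the replicate block). Their summed level was 1154 to 5006 CPM in RIP libraries and 3306 to 7281 in RNA, where Rn7sk was the largest part. In DMSO Rn7sk stood at 2476 to 3726.5 CPM in RNA. Malat1 stood at 805 to 1622.5 CPM in RNA and at 1711 to 4258 CPM in RIP. Of the 4, 3 were called higher and 1 lower in RIP than in RNA in DMSO, against 37% and 33.4% of all genes. The calls were 1 and 1 in LPS and 3 and 1 in LPS+TM7nox. The part of these RNAs in the result was not tested.

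Neither rRNA was called between LPS and DMSO in RIP. mt-Rnr1 stood at 1208, 1663, 1683 and 3273 CPM in DMSO and at 1865, 1832, 2666 and 8167 CPM in LPS, and it was higher with LPS in 4 of 4 same-numbered pairs. mt-Rnr2 stood at 1704, 1866, 2678 and 4708 CPM in DMSO and at 2168, 1762, 2131 and 15410 CPM in LPS. Replicate 4 was the highest library of each group for both rRNAs. The log2 fold change was 0.87 for mt-Rnr1 (SE 0.43, FDR 0.116) and 0.95 for mt-Rnr2 (SE 0.60, FDR 0.212). Without RIP LPS replicate 4 the value of mt-Rnr1 was 0.06 (FDR 0.901) and that of mt-Rnr2 -0.49 (FDR 0.321). Without RIP DMSO replicate 4 mt-Rnr1 was called at 1.21 (FDR 0.0431). Without the filter on low counts both were called, mt-Rnr1 at 0.87 (FDR 0.00804) and mt-Rnr2 at 0.95 (FDR 0.00408). mt-Tp stood at 0.982, 0.926, 1.30 and 2.26 CPM in DMSO and at 1.06, 0.945, 1.04 and 2.03 CPM in LPS, and its log2 fold change was -0.12 (SE 0.39, FDR 0.823).

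With TM7nox added to LPS, 2 mitochondrial mRNAs were higher in RIP. mt-Nd2 stood at 530, 368, 364 and 215 CPM in LPS+TM7nox against 212, 223, 197 and 147 CPM in LPS, and its log2 fold change was 0.87 (SE 0.25, FDR 0.0260). mt-Nd4 stood at 1101, 847, 800 and 453 CPM against 476, 545, 450 and 292 CPM, and its log2 fold change was 0.81 (SE 0.26, FDR 0.0397). Replicate 4 with LPS+TM7nox lay within the range of LPS for mt-Nd2 and mt-Nd4, and the other replicates lay above that range. No member was called lower, and 8.64% of all genes tested were higher and 7.61% lower.

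The 7 mRNAs had similar values with TM7nox in RIP, from 0.73 for mt-Co1 (SE 0.35, FDR 0.173) to 0.87 for mt-Nd2, with a median of 0.78 against -0.03 over all genes. Each of the 7 was higher with LPS+TM7nox in 4 of 4 same-numbered pairs. The 7 share their libraries and scale, and the share of all genes that did so was not counted. mt-Nd6 stood at 588, 564, 548 and 1056 CPM, against 264, 297, 410 and 625 CPM in LPS, and its log2 fold change was 0.75 (SE 0.39, FDR 0.202). With the replicate block all 7 mRNAs were called higher, against 33.6% of all genes called in either direction. mt-Co1 was then at 0.66 (FDR 0.0151) and mt-Nd6 at 0.79 (FDR 0.00446). Over all alternatives the lowest values were 0.40 for mt-Co1 and 0.47 for mt-Nd6. The FDR of mt-Co1 was 0.462 without RIP LPS+TM7nox replicate 1, and that of mt-Nd6 0.476 without replicate 4 of that group. mt-Nd2 missed the threshold of the unblocked fit without RIP LPS+TM7nox replicate 1 (0.65, FDR 0.0785) or 2 (0.90, 0.0501), or RIP LPS replicate 3 (0.88, 0.0575) or 4 (0.77, 0.0756). mt-Nd4 missed it without RIP LPS replicate 1 (0.88, FDR 0.0663), 3 (0.82, 0.0792) or 4 (0.67, 0.109), or RIP LPS+TM7nox replicate 1 (0.61, 0.111), 2 (0.80, 0.0810) or 3 (0.83, 0.0624).

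Neither rRNA was called with TM7nox in RIP. mt-Rnr1 stood at 5021, 2534, 3970 and 3540 CPM in RIP from LPS+TM7nox, and its log2 fold change was 0.01 (SE 0.43, FDR 0.992), with a sign that turned under library totals. mt-Rnr2 stood at 7564, 2814, 4958 and 3051 CPM, and its log2 fold change was -0.27 (SE 0.60, FDR 0.802), or 0.39 (FDR 0.542) with the replicate block. Both were higher than the same-numbered LPS library in replicates 1 to 3 and lower in replicate 4. mt-Tp stood at 1.27, 1.42, 2.80 and 1.17 CPM, and its log2 fold change was 0.37 (SE 0.39, FDR 0.569). Its lowest value over all alternatives was 0.001, and its FDR without RIP LPS+TM7nox replicate 3 was 0.999. The comparisons of LPS with DMSO and of LPS+TM7nox with LPS share the LPS libraries. None of the 4 nuclear-retained RNAs was called with TM7nox in RIP, with Neat1 at 0.64 (FDR 0.406), Rn7sk at 0.30 (FDR 0.560), Malat1 at 0.29 (FDR 0.549) and Kcnq1ot1 at -0.52 (FDR 0.524). Their part in the values of the mRNAs was not tested.

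**Figure D3:**
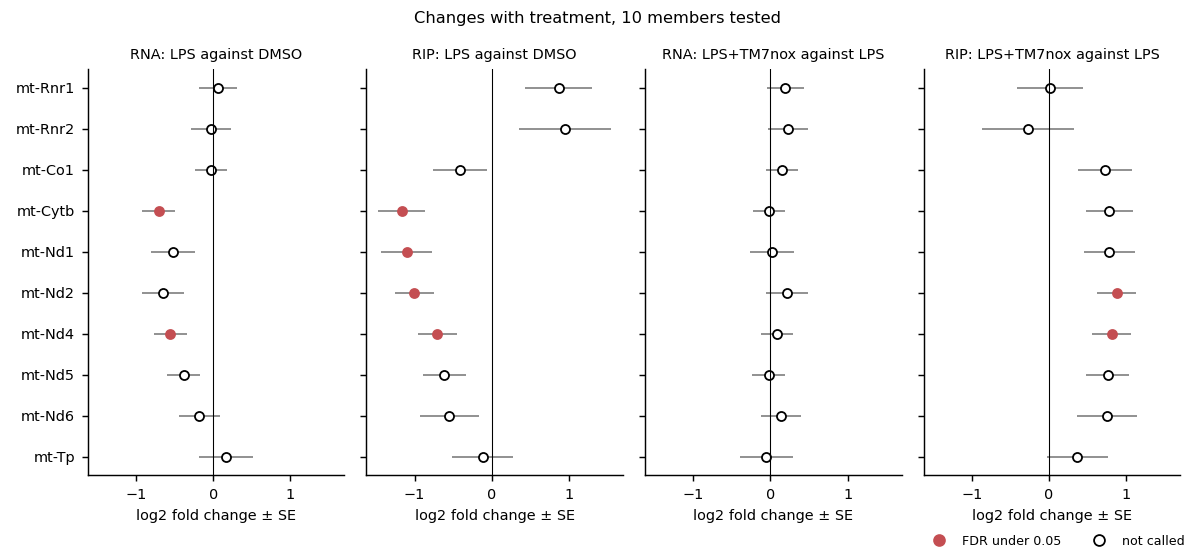
Log2 fold changes with their standard errors for the 10 members tested, for LPS against DMSO and LPS+TM7nox against LPS in RNA and in RIP. Filled red points are called at an FDR under 0.05, and in the last panel the 7 mRNAs lie between 0.73 and 0.87.

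Whether RIP moved apart from RNA was tested as an interaction over the 24 libraries. No member was called for LPS, where 0.014% of the 14311 genes tested were higher and 0.028% lower, and 0 members had an unadjusted p under 0.05 in edgeR and 0 calls in DESeq2. The 7 mRNAs ranged from -0.68 for mt-Nd1 (SE 0.49, FDR 0.838) to -0.28 for mt-Nd4 (SE 0.35, FDR 0.919), and the rRNAs were at 0.69 for mt-Rnr1 (SE 0.55, FDR 0.853) and 0.88 for mt-Rnr2 (SE 0.73, FDR 0.857). Without RIP LPS replicate 4 these were 0.02 and -0.44. mt-Nd6 was at -0.49 (SE 0.52, FDR 0.902) and mt-Tp at -0.40 (SE 0.57, FDR 0.935). No member was called for TM7nox, where 0.00699% of genes were higher and 0% lower. With TM7nox the 7 mRNAs ranged from 0.60 for mt-Co1 (SE 0.43, FDR 0.875) to 0.83 for mt-Cytb (SE 0.40, FDR 0.871). For 3 of them, mt-Nd4, mt-Nd5 and mt-Cytb, the unadjusted p of edgeR was under 0.05 (0.0387, 0.0453 and 0.0463), and DESeq2 called 0. mt-Nd6 was at 0.65 (SE 0.52, FDR 0.879) and mt-Tp at 0.44 (SE 0.56, FDR 0.912). The rRNAs were at -0.16 for mt-Rnr1 (SE 0.55, FDR 0.971) and -0.48 for mt-Rnr2 (SE 0.72, FDR 0.930). A change of RIP beyond that of RNA was thus not shown for any member.

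Between assays, the rRNAs were far lower in RIP than in RNA in each treatment. The log2 fold change of mt-Rnr1 was -4.08 (SE 0.44, FDR 9.45e-09) in DMSO, -3.39 (SE 0.43, FDR 1.70e-07) in LPS and -3.56 (SE 0.43, FDR 6.66e-08) in LPS+TM7nox. mt-Rnr2 was at -4.75 (SE 0.60, FDR 1.41e-07), -3.87 (SE 0.57, FDR 2.34e-06) and -4.35 (SE 0.59, FDR 4.25e-07). Every RIP library was below every RNA library of its treatment for both rRNAs. In LPS the values without RIP replicate 4 were -4.15 for mt-Rnr1 and -5.27 for mt-Rnr2. The members' counts in this comparison were 1 higher and 6 lower in DMSO, 0 and 6 in LPS and 1 and 5 in LPS+TM7nox. Of all 14311 genes, 37% were higher and 33.4% lower in DMSO, 32.9% and 30.8% in LPS, and 35.2% and 34.8% in LPS+TM7nox.

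The mRNAs spread between lower and higher in RIP. mt-Cytb was lowest, at -1.24 (SE 0.28, FDR 0.000430) in DMSO, -1.82 (SE 0.29, FDR 5.96e-06) in LPS and -0.99 (SE 0.28, FDR 0.00319) in LPS+TM7nox. mt-Co1 was lower at -0.99 (FDR 0.00644), -1.51 (FDR 0.000177) and -0.90 (FDR 0.0117) in the same order. mt-Nd2 was lower in DMSO (-0.71, FDR 0.0320) and LPS (-1.19, FDR 0.00108). mt-Nd1, mt-Nd4 and mt-Nd5 were not called in any treatment without the replicate block. With the block 3 members were called higher and 5 lower in LPS+TM7nox, where 74.3% of all genes were called in either direction. Those higher were mt-Nd6 (1.04, FDR 0.000566), mt-Nd5 (0.56, FDR 0.0286) and mt-Nd4 (0.41, FDR 0.0404). Leaving out libraries ended some calls. For mt-Nd2 in DMSO these were RIP replicate 1 (-0.57, FDR 0.107), RIP replicate 4 (-0.73, 0.0508) and RNA replicate 2 (-0.47, 0.168), and with DESeq2 mt-Nd2 was at -0.54 (FDR 0.0761). For mt-Co1 in LPS+TM7nox they were RNA replicate 2 (-0.71, FDR 0.0550) and RIP replicate 4 (-0.61, 0.0608).

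mt-Nd6, the U-rich mRNA, was the only member called higher in RIP than in RNA in the fit without the replicate block. Strand use in counting is not stated, and without it reads from the opposite strand would also fall on this row, so its values cannot be assigned to the U-rich RNA alone. mt-Nd6 stood at 218, 492, 278 and 343 CPM in RNA from DMSO and at 226, 449, 568 and 1053 CPM in RIP, so replicates 1 and 2 were nearly level and replicates 3 and 4 higher in RIP. The log2 fold change was 0.89 (SE 0.37, FDR 0.0357) in DMSO, 0.40 (SE 0.37, FDR 0.348) in LPS and 1.05 (SE 0.37, FDR 0.0149) in LPS+TM7nox. In LPS it stood at 179, 367, 329 and 325 CPM in RNA, and in LPS+TM7nox at 252, 464, 280 and 311 CPM. With LPS+TM7nox every RIP library was above every RNA library. In DMSO the value was 0.007 (FDR 0.993) in replicates 1 and 2 alone. With library totals as the scale, which lower the median of all genes by 0.724 to 1.07 in these comparisons, mt-Nd6 was at 0.14 in DMSO, -0.56 in LPS and 0.05 in LPS+TM7nox, with no call.

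The mt-Nd6 call in DMSO was lost without RNA replicate 1 (0.68, FDR 0.128), 3 (0.80, 0.0901) or 4 (0.90, 0.0599), without RIP replicate 3 (0.83, 0.0599) or 4 (0.40, 0.319), and with scaling on the other genes (0.77, 0.0528). In LPS+TM7nox it was lost without RNA replicate 1 (0.91, FDR 0.0515) or RIP replicate 4 (0.81, 0.0534). Across the 7 mRNAs, which share their libraries, Pearson's r between the U share and the log2 fold change of RIP over RNA was 0.646, 0.611 and 0.562 in DMSO, LPS and LPS+TM7nox. Spearman's rho was 0.393, 0.286 and 0.286. Without mt-Nd6, Pearson's r was 0.0587, -0.00958 and -0.0296 over the other 6. For RIP against IgG r was 0.376 (rho 0.786) with mt-Nd6 and 0.771 (rho 0.771) without it, and for IgG against RNA it was 0.435 (rho -0.107) and -0.775 (rho -0.771).

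mt-Tp was lower in RIP than in RNA in each treatment, at -1.78 (SE 0.40, FDR 0.000345) in DMSO, -2.19 (SE 0.41, FDR 5.36e-05) in LPS and -1.74 (SE 0.40, FDR 0.000446) in LPS+TM7nox. In RNA it stood at 3.39, 6.67, 5.18 and 4.24 CPM in DMSO, 2.52, 6.32, 5.84 and 8.17 in LPS and 2.53, 6.35, 6.49 and 6.50 in LPS+TM7nox. Every RIP library of DMSO and of LPS was below every RNA library of its treatment, while in LPS+TM7nox RIP replicate 3 (2.80 CPM) was above RNA replicate 1.

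**Figure D4:**
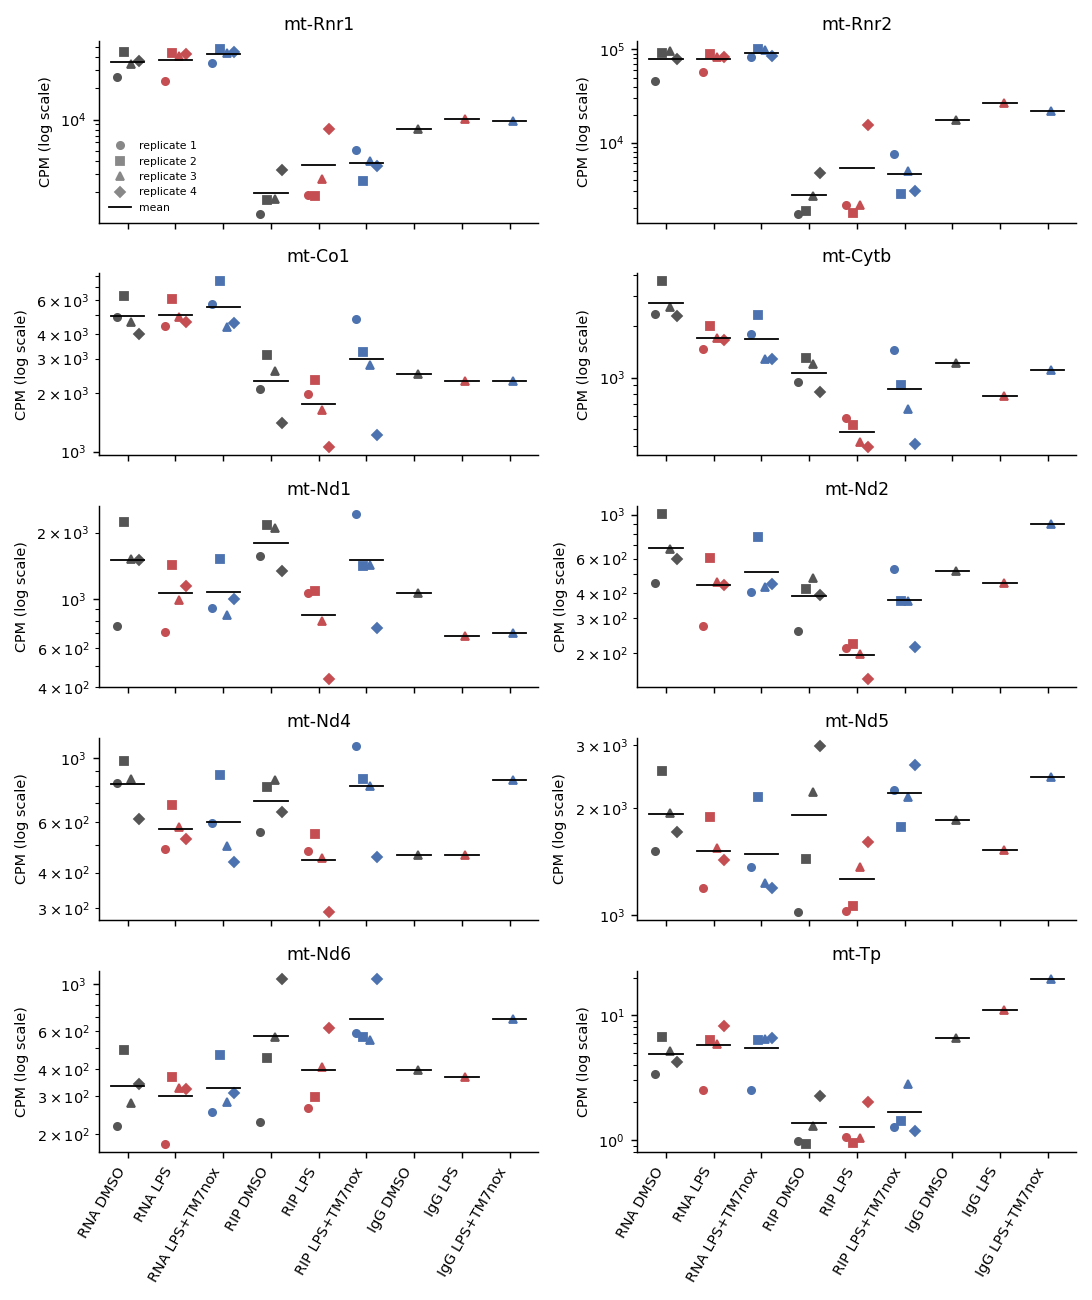
CPM of the 10 members tested (log scales that differ between panels), by assay and treatment, with 1 point per library, shapes for replicate numbers and bars at the group mean. Replicate 4 of RIP is the highest library for mt-Nd6 in each treatment and the lowest for mt-Co1 in each treatment.

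The 3 IgG libraries show what beads recovered without the anti-HuR antibody. Against IgG, with treatment as a covariate over 15 libraries, anti-HuR RIP held less of both rRNAs, mt-Nd2 and mt-Tp, and no member was called higher. mt-Rnr1 stood at 8102, 10229 and 9579 CPM in IgG from DMSO, LPS and LPS+TM7nox, and its log2 fold change was -1.66 (SE 0.34, FDR 0.000241). mt-Rnr2 stood at 17614, 26817 and 21913 CPM, with -2.44 (SE 0.45, FDR 7.62e-05). mt-Nd2 stood at 521, 450 and 892 CPM, with -1.02 (SE 0.22, FDR 0.000436). mt-Tp stood at 6.52, 11.0 and 19.5 CPM, with -3.04 (SE 0.27, FDR 8.86e-09). Of all 14973 genes tested, 33.8% were higher and 34.2% lower in RIP.

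mt-Nd6, called higher in RIP than in RNA in DMSO and LPS+TM7nox but not in LPS, was called against IgG only with library totals. It stood at 397, 370 and 684 CPM in IgG, and its log2 fold change was 0.19 (SE 0.33, FDR 0.634). With library totals, which also lowered the median of all genes, it turned to -0.85 and was called lower (FDR 0.0174). mt-Nd1 had the highest mRNA value, at 0.68 (SE 0.31, FDR 0.0559), from 1066, 678 and 706 CPM in IgG, and library totals turned it to -0.34. It was called with the replicate block (0.65, FDR 0.0247), with DESeq2 (0.81, FDR 0.0107), with scaling on the other genes (0.76, FDR 0.0373) and without the filter (0.79, FDR 0.00551). It was also called without IgG LPS (0.93, FDR 0.0423), RIP LPS+TM7nox replicate 2 (0.76, 0.0422) or replicate 4 (0.81, 0.0176), RIP DMSO replicate 4 (0.72, 0.0480) or RIP LPS replicate 4 (0.77, 0.0177). In replicate 3 alone, the only one with IgG, mt-Nd1 was at 0.77 (FDR 0.00120), a fit chosen after the data had been seen.

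IgG libraries in turn held less rRNA than total RNA and more mt-Tp. The log2 fold change of IgG against RNA was -2.06 for mt-Rnr1 (SE 0.24, FDR 2.87e-05), -1.90 for mt-Rnr2 (SE 0.26, FDR 0.000146), -1.11 for mt-Co1 (SE 0.19, FDR 0.000890), -0.94 for mt-Cytb (SE 0.20, FDR 0.00543) and 1.12 for mt-Tp (SE 0.30, FDR 0.0197). Among all 13162 genes tested 7.64% were higher and 6.57% lower in IgG, and 1 and 4 of the 10 members were. mt-Nd6 was at 0.58 (SE 0.23, FDR 0.108) and was called with the replicate block (0.68, FDR 0.0189), with library totals (0.73, FDR 0.0223), without the filter (0.56, FDR 0.0264), without RNA DMSO replicate 2 (0.66, FDR 0.0487) and in replicate 3 alone (0.69, FDR 0.00545). Its lowest value over all alternatives was 0.28, and its FDR without IgG LPS+TM7nox was 0.652. The mt-Cytb call was lost without IgG DMSO (-0.85, FDR 0.0508), and that of mt-Tp without IgG LPS (1.21, FDR 0.0707) or IgG LPS+TM7nox (0.68, FDR 0.327). Of the 4 nuclear-retained RNAs, Neat1 (2.07, FDR 0.000702) and Kcnq1ot1 (2.47, FDR 0.00165) were also higher in IgG, Kcnq1ot1 not without IgG DMSO (1.70, FDR 0.0815), and Rn7sk was lower (-0.62, FDR 0.0268), a call that ended with the replicate block (-0.49, FDR 0.124) and without IgG LPS (-0.44, FDR 0.193) or IgG LPS+TM7nox (-0.59, FDR 0.145). In IgG from DMSO, LPS and LPS+TM7nox Neat1 stood at 292, 35.5 and 164 CPM and Kcnq1ot1 at 99.0, 3.74 and 22.1 CPM. In RNA from LPS they stood at 19.5 to 35.5 and 3.24 to 8.48 CPM, so IgG from LPS lay at the top of or within that range. Their part in the result was not tested.

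**Figure D5:**
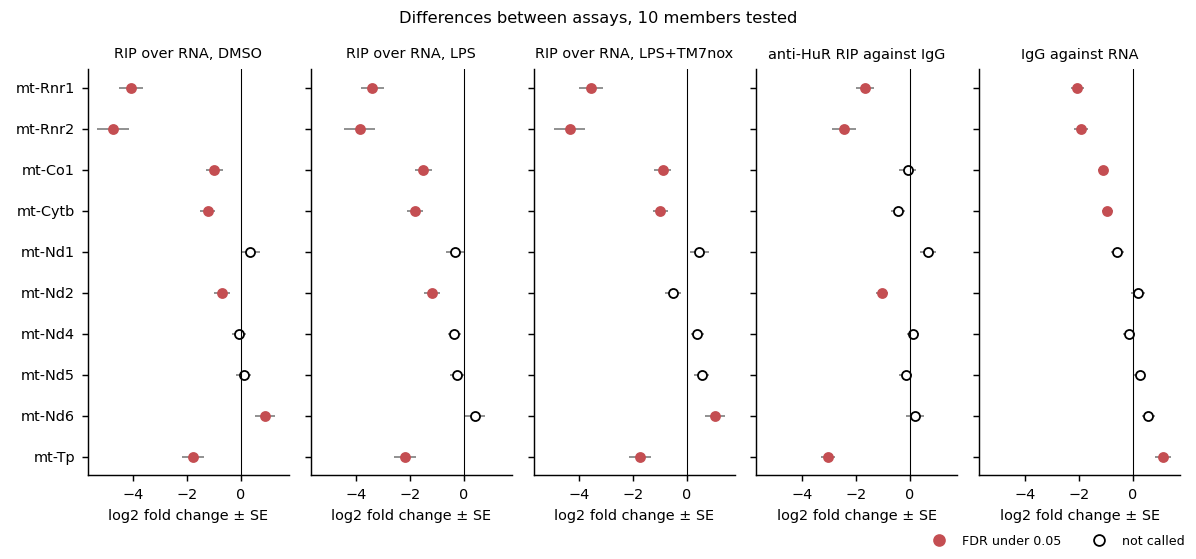
Log2 fold changes with their standard errors for the 10 members tested, for RIP over RNA in each treatment, anti-HuR RIP against IgG and IgG against RNA, on shared axes. Filled red points are called at an FDR under 0.05, and the rRNAs lie from -4.75 to -3.39 in the RIP over RNA panels, from -2.44 to -1.66 against IgG and from -2.06 to -1.90 for IgG against RNA.

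The proteins that make and remove mitochondrial RNA are encoded in the nucleus, and 61 of their genes were followed in 4 lists. They cover transcription and DNA maintenance, RNA processing and modification, RNA stability and decay, and regulators of mitochondrial biogenesis. With LPS in RNA, 3 of the 57 tested rose and 15 fell, with a median log2 fold change of -0.26 against -0.04 over all genes, where 20.2% of all genes rose and 21.7% fell. With library totals as the scale 2 rose and 32 fell, where 47.5% of all genes were called in either direction and the median of all genes was -0.32. Polrmt, the mitochondrial RNA polymerase, fell (log2 fold change -0.82, FDR 0.000703). Tfam, which packages mitochondrial DNA and aids transcription, was at -0.13 (FDR 0.545). Lrpprc, which stabilises mitochondrial mRNAs, was at -0.36 (FDR 0.104, or 0.0117 with the replicate block), and its partner Slirp did not pass the filter. Pnpt1, a polynucleotide phosphorylase, rose (1.45, FDR 1.44e-06).

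Besides Pnpt1, Ptcd1, a pentatricopeptide repeat protein of mitochondria, rose in RNA with LPS at 1.03 (FDR 0.000651), as did Mterf4, which acts in ribosome assembly, at 0.66 (FDR 0.00357). The largest falls were in Ppargc1b, a coactivator of mitochondrial biogenesis, at -2.91 (FDR 0.000177), Mgme1, a mitochondrial exonuclease, at -1.42 (FDR 0.000665), and Mrm1, an rRNA methyltransferase, at -1.41 (FDR 0.00449). By list, 1 rose and 5 fell of 15 for transcription and DNA maintenance and 1 rose and 5 fell of 22 for processing and modification. For stability and decay 1 rose and 3 fell of 13, and for the regulators 0 rose and 2 fell of 7.

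With TM7nox added to LPS in RNA, Mterf3 (0.67, FDR 0.0425), Mterf4 (0.48, FDR 0.0488) and Angel2 (0.56, FDR 0.0316) rose, and Esrra, a nuclear receptor that drives mitochondrial genes, fell (-0.78, FDR 0.0119). These are 3 higher and 1 lower of 57, where 7.37% of all genes were higher and 6.4% lower. Not called were Polrmt (-0.02, FDR 0.964), Pnpt1 (0.11, FDR 0.685), Tfam (0.43, FDR 0.0756, or 0.00728 with the replicate block) and Lrpprc (0.14, FDR 0.665). Of 15 alternative settings, the call held in 5 for Mterf3, 3 for Mterf4, 7 for Angel2 and 14 for Esrra. It was lost without each of the 8 libraries for Mterf4 (0.42 to 0.55), without each except LPS replicate 3 for Mterf3 (0.49 to 0.74), and without each except LPS+TM7nox replicate 1 for Angel2 (0.53 to 0.58). In RIP with LPS 5 of 57 rose and 8 fell, where 23.5% of all genes rose and 21.2% fell. With library totals 1 rose and 38 fell, where 56.7% of all genes were called and the median of all genes was -0.63. With the replicate block 9 rose and 14 fell, where 59.3% of all genes were called. Pnpt1 (1.67, FDR 6.07e-05), Tefm (1.03, FDR 0.000398) and Ptcd1 (0.89, FDR 0.00176) rose most, and Ppargc1b (-3.86, FDR 4.55e-07), Mgme1 (-1.12, FDR 1.77e-05) and Twnk (-1.03, FDR 0.000294) fell most. Polrmt was lower at -0.64 (FDR 0.0325), in 9 of 15 alternatives, but not without RIP LPS replicate 1 (-0.63), 2 (-0.54) or 3 (-0.67) or RIP DMSO replicate 3 (-0.66). Tfam was at 0.08 (FDR 0.745) and Lrpprc at -0.04 (FDR 0.858). In RIP with TM7nox, Mterf3 (0.87, FDR 0.00950) and Gabpb1 (0.55, FDR 0.0274) rose and Esrra (-0.77, FDR 0.0178) fell, 2 higher and 1 lower of 57, where 8.64% of all genes were higher and 7.61% lower. With the replicate block 7 were higher and 10 lower, where 33.6% of all genes were called in either direction. The Mterf3 call held in 14 of 15 alternatives, that of Gabpb1 in 8 and that of Esrra in 9. Gabpb1 was not called without RIP LPS replicate 1 (0.54) or 4 (0.49) or RIP LPS+TM7nox replicate 3 (0.48) or 4 (0.54), and Esrra not without RIP LPS replicate 1 (-0.72) or 4 (-0.67) or RIP LPS+TM7nox replicate 1 (-0.67) or 3 (-0.68). Polrmt was at 0.30 (FDR 0.412) and Lrpprc at 0.06 (FDR 0.849). Tfam was at 0.43 (FDR 0.102) and Pnpt1 at 0.51 (FDR 0.174), and with the block they were called at 0.43 (FDR 0.0158) and 0.47 (FDR 0.0313).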

How the data were processed

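The authors deposited 1 table of raw counts, whole numbers of reads per gene for 55483 genes in 27 libraries. FastQC 0.11.9, STAR, HTSeq, DESeq2 and GRCm39 are named in the submitters' processing notes, without roles. Information on strand use in counting and on reads with several matches is not given in the sources used here. Per the labels' protocols, 7 ng of RNA went into each library, prepared by SMART-Seq Stranded chemistry. No molecular identifiers are stated, so intervals and floors (3 counts) cover counting error only.

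The members, the gene lists and the tests were chosen with earlier results of these data known. Counts were tested with edgeR 4.0.16 (R 4.3.3) by two-sided quasi-likelihood F tests with TMM scaling, filterByExpr (minimum count 10) and Benjamini-Hochberg adjustment over all genes tested, called at an FDR under 0.05. RNA and RIP libraries were fitted apart for treatments (12 each). They were fitted together for RIP over RNA and its change (24 libraries), and 15 libraries with treatment as a covariate were used for each IgG comparison. CPM and log2 fold changes were computed here from the deposited counts. Nuclear copies were sought with BLAST+ 2.17.0 and exact 50-base matches on GRCm39, with genes from GENCODE M39.

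Fold changes are named for both rRNAs, mt-Nd6, mt-Tp, the highest and lowest mRNA of each comparison and, added after the values were seen, every called member. Of the nuclear lists, 5 genes are named always, with up to 3 called genes per direction in each treatment comparison.

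Replicate numbers come from the labels. Same-numbered libraries deviated together from their group means in each of 7 pairs of groups, with correlations of 0.116 to 0.392, so the numbers were taken to pair the libraries. The same number was the best match except for RNA LPS replicate 3, which matched RNA DMSO replicate 4 best. The fits used for the calls left this pairing out, since the labels do not say that a number marks a shared culture or day. The fit with the replicate number as a block was an alternative. Other alternatives were DESeq2 1.42.0, library totals or the genes other than mt- as the scale, no filter, subsets of replicates, each library left out and a denominator of coding and mt- genes. The fit on replicate 3 alone for the IgG comparisons, and the alternatives for the nuclear genes, were added after seeing the data. No pair of replicates agreed within sampling noise (chi-square per gene 38.0 to 213). Overlap of groups and the direction of same-numbered pairs were counted for the members only, so no share of all genes stands beside them. Before use the fits were tested on simulated counts with an equal spread for every gene and no replicate pairing or general difference between assays. These data differ in that, so the test does not show how the fits fare on them.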

Additional observations from a re-analysis of the deposited data

Results flagged for a closer look

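In 12 of 78 groups of 4 libraries, 1 library stood apart from the other 3 by Dixon's criterion at 95%, where chance flags about 1 in 20 groups. The group values overlap in what they measure, so these are not separate events.

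Replicate 4 of RIP from LPS was the highest library in 5 measures. Its rRNAs took 1.556% of the counts against 0.2079% to 0.2658% in the other 3, with 5.171 rRNA counts per mRNA count against 0.5907 to 0.9076. mt-Rnr1 stood at 8167 CPM there against 1832 to 2666, mt-Rnr2 at 15410 against 1762 to 2168 and mt-Tp at 2.027 against 0.9454 to 1.064.

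Replicate 4 of RIP from DMSO had 0.9227 rRNA counts per mRNA count against 0.3628 to 0.4366 in the other libraries. In RIP from LPS+TM7nox, replicate 4 had the highest mt-Nd6, 1056 CPM against 547.5 to 588.3, and replicate 3 the highest mt-Tp, 2.796 CPM against 1.17 to 1.423. Replicate 2 of that group had the lowest ratio of rRNA to mRNA counts, 0.5872 against 0.9599 to 1.023.

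In total RNA, mt-Rnr1 was lowest in LPS replicate 1 at 23780 CPM against 40960 to 44400. In LPS+TM7nox, mt-Nd2 was highest in replicate 2 at 767.7 CPM against 405.3 to 448.7, and mt-Tp lowest in replicate 1 at 2.526 CPM against 6.348 to 6.5.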

How the results depend on the processing

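Depth limits mt-Tp, with 13 to 344 counts per library, and IgG rests on 1 library per treatment. The direction of each call of a member in the edgeR fits on all libraries, with TMM, the filter and no block, held under every alternative. Calls made only under an alternative could turn. mt-Nd1 against IgG turned to -0.34 with library totals. mt-Rnr2 in RIP with LPS was called at 0.95 without the filter and was at -0.49 without RIP LPS replicate 4. In replicates 3 and 4 alone, mt-Tp in RNA with LPS was called at 0.58 and mt-Cytb in RNA with TM7nox at -0.36. In replicates 1 and 2 alone they were at -0.21 and 0.25. Values below are members called or log2 fold changes, and the cause of each change was not tested. A lone library left in an arm is assumed to vary like the others.

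The number after a comparison is its count in the report, and a percent in brackets is the share of all genes called in the same setting. For LPS against DMSO in RNA (2 members called) they were 5 with library totals (47.5%), 1 with scaling on the genes other than mt- (41.8%), 4 without the filter (17.3%), 5 with the replicate block (52.4%), 0 in replicates 1 and 2 alone (13.4%), 6 in replicates 3 and 4 alone (58.7%) and 0 to 3 with 1 library left out. For LPS against DMSO in RIP (4) they were 7 with library totals (56.7%), 7 with the block (59.3%) and 1 in replicates 1 and 2 alone (24.02%). For LPS+TM7nox against LPS in RIP (2) they were 5 without the filter (6.25%), 7 with the block (33.6%), 0 in replicates 1 and 2 alone (5.59%), 0 in replicates 3 and 4 alone (7.87%) and 0 to 3 with 1 library left out. For LPS+TM7nox against LPS in RNA (0) there was 1 in replicates 3 and 4 alone (27.9%). For RIP over RNA in LPS+TM7nox (6) there were 3 in replicates 1 and 2 alone (52.6%). For RIP against IgG (4) there were 9 with library totals (75.2%), where the median of all genes was -1.02.

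Signs turned mostly in values near 0. In RNA with LPS, library totals gave -0.23 for mt-Rnr1 and -0.13 for mt-Tp. Scaling on the other genes gave 0.029 for mt-Rnr2 and 0.028 for mt-Co1, no filter gave 0.031 and 0.035, and DESeq2 gave 0.028 and 0.024. Replicates 1 and 2 alone gave -0.041 for mt-Rnr1, 0.12 for mt-Rnr2 and -0.21 for mt-Tp, and replicates 3 and 4 alone gave 0.15 for mt-Co1 and 0.083 for mt-Nd6. With 1 library left out, the range was -0.046 to 0.23 for mt-Rnr1, -0.20 to 0.095 for mt-Rnr2, -0.12 to 0.095 for mt-Co1, -0.31 to 0.058 for mt-Nd6 and -0.041 to 0.40 for mt-Tp.

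In RNA with TM7nox, replicates 1 and 2 alone gave 0.25 for mt-Cytb and 0.0098 for mt-Tp, and replicates 3 and 4 alone gave -0.011 for mt-Nd2 and -0.12 for mt-Nd6. With 1 library left out, the range was -0.051 to 0.40 for mt-Nd2, -0.091 to 0.24 for mt-Nd6, -0.23 to 0.088 for mt-Cytb and -0.29 to 0.17 for mt-Tp.

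In RIP with LPS, replicates 1 and 2 alone gave 0.036 for mt-Tp, and leaving out 1 library gave -0.49 to 1.33 for mt-Rnr2 and -0.46 to 0.19 for mt-Tp. In RIP with TM7nox, mt-Rnr1 was at -0.015 with library totals, -0.0076 without the filter and -0.55 in replicates 3 and 4 alone. mt-Rnr2 was at 0.39 with the replicate block and 1.36 in replicates 1 and 2 alone. Leaving out 1 library gave -0.18 to 0.80 for mt-Rnr1 and -0.61 to 1.15 for mt-Rnr2.

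For the change of RIP over RNA with LPS, replicates 1 and 2 alone gave -0.056 for mt-Rnr2, 0.078 for mt-Nd4, 0.0012 for mt-Nd6 and 0.20 for mt-Tp, and leaving out 1 library gave -0.44 to 1.29 for mt-Rnr2. For the change with TM7nox, mt-Rnr1 was at 0.063 with the block, and replicates 1 and 2 alone gave 0.75 for mt-Rnr1 and 1.10 for mt-Rnr2. Leaving out 1 library gave -0.35 to 0.64 and -0.79 to 0.96. Library totals gave -0.56 for mt-Nd6 in RIP over RNA in LPS, and -0.34 for mt-Nd1 and -0.85 for mt-Nd6 in RIP against IgG. Library totals moved the median of all genes by over 0.1 in 8 comparisons, from -1.07 to 0.128. Among the named fold changes of members and of the nuclear genes printed there, the replicate block changed no call other than those printed in the report.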
